A study of Danio rerio with 4 samples.

Results

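Among the proteins that animal mitochondria encode in their own genome are the core of cytochrome c oxidase, the cytochrome b of complex III and a pair of membrane subunits of ATP synthase. Their 6 genes are MT-CO1 (ENSDARG00000063905), MT-CO2 (ENSDARG00000063908), MT-CO3 (ENSDARG00000063912), MT-CYB (ENSDARG00000063924), MT-ATP6 (ENSDARG00000063911) and mt-atp8 (ENSDARG00000063910). They were taken by identifier from the 49610 rows measured in zebrafish ovary. MT-CO3, MT-ATP6 and mt-atp8 carry the same value in every library, which a further row without a gene symbol also carries, so the 6 genes give 4 distinct loci. These are 4 of the 10 distinct loci for the 13 mitochondrially encoded proteins, the other 6 loci being subunits of complex I (MT-ND1 to MT-ND6 and mt-nd4l).

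The ovaries came from wild-type adult females of the AB strain, 5 months old. The exposed fish had spent 30 days with dibutyl phthalate (DBP), with its branched-chain isomer diisobutyl phthalate (DiBP), or with both compounds (the combined group). The control group was unexposed as far as its label says, and the sources used here give neither doses nor the number of animals behind each library. Each of the 4 groups is 1 library, so no difference has a replicate check: every comparison is between libraries, and no p-value, standard error or interval can be given. The order of close values could therefore not be separated from the spread between animals.

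Mitochondrial genes are read as long precursor RNAs that span many genes, from which tRNAs, rRNAs and mRNAs are cut. The amount of each mRNA afterwards depends on how it is processed, protected and degraded as well as on how often the precursor is made. The proteins join nuclear-encoded partners in the inner membrane: complex III passes electrons to cytochrome c, the oxidase passes them to oxygen, and ATP synthase uses the resulting proton gradient. Oocytes accumulate large stores of mitochondria as they grow, and these are the founders of the embryo's mitochondria. In bulk tissue, fewer cells of a type and less RNA per cell cannot be told apart.

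In the annotation used for gene order, mt-atp8, MT-ATP6 and MT-CO3 follow each other directly, after MT-CO2, and MT-CO1 lies upstream of MT-CO2. MT-CYB lies apart from them, beyond the complex I genes MT-ND3 to MT-ND6. Nuclear copies of mitochondrial sequence exist in many genomes, and how reads that match several places were counted is not given in the sources used here.

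These loci were among the most abundant transcripts of the ovary. Values are FPKM (fragments scaled by the length of the transcript and the size of the library), and ranks are among 35253 loci above 0 in any library. MT-CO2 encodes the subunit that takes electrons from cytochrome c, and its level was 1984 FPKM in the control, 2896 in DBP, 1905 in DiBP and 1409 in the combined library. It ranked 7th, 7th, 15th and 15th in those libraries. MT-CO1 encodes the subunit that holds the heme and copper site where oxygen is reduced, and it stood at 1392 FPKM in the control, 2490 in DBP, 1239 in DiBP and 1279 in the combined library. Its level was highest in the DBP library, with the other 3 libraries within 1.12 times of each other.

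MT-CYB encodes the heme-bearing subunit of complex III that oxidises ubiquinol. Its level was 839 FPKM in the control, 1717 in DBP, 771 in DiBP and 641 in the combined library, so that it ranked 64th in the control and 13th in the DBP library. The locus shared by MT-CO3, the remaining core subunit of the oxidase, MT-ATP6, which forms part of the proton path of ATP synthase, and mt-atp8, a small membrane subunit, was at 912 FPKM in the control, 1114 in DBP, 759 in DiBP and 579 in the combined library. Which of the 3 genes this value reflects cannot be told. DBP was the highest library at all 4 loci and the control the next. The lowest was the combined library at 3 of them and DiBP at MT-CO1. The highest level was 2.01 times the lowest for MT-CO1, 2.05 times for MT-CO2, 1.92 times for the CO3-ATP6-ATP8 locus and 2.68 times for MT-CYB.

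**Figure D1:**
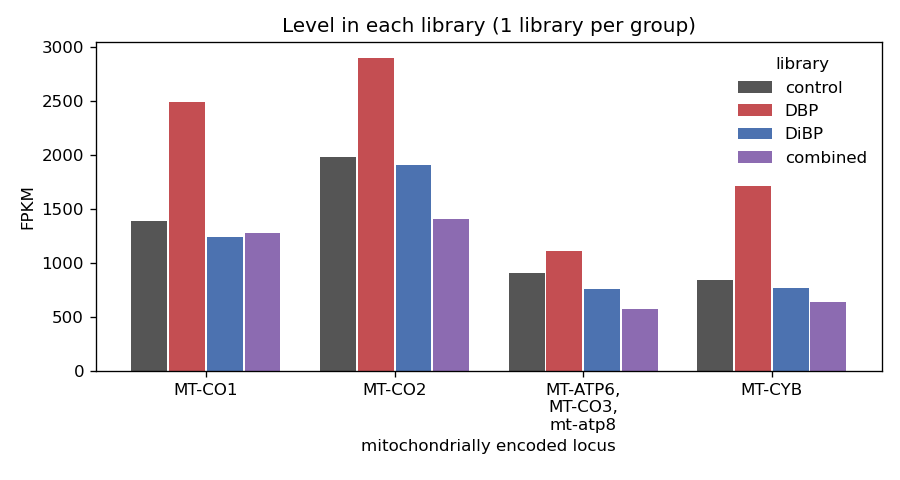
Level of the 4 distinct loci (FPKM, y axis) in each library, 1 bar per library and no error bar, since each group is 1 library. The DBP bar is the highest at every locus, from 1114 FPKM at the CO3-ATP6-ATP8 locus to 2896 at MT-CO2.

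With each shared value counted once, the 4 loci together held 1.12% of all FPKM in the control, 1.70% in DBP, 0.942% in DiBP and 0.877% in the combined library. Their sums were 5127, 8217, 4674 and 3907 FPKM in the same order. The 6 complex I loci held 0.125%, 0.470%, 0.232% and 0.173%. The share of the 4 loci was thus lower in the DiBP and combined libraries than in the control, while that of the complex I loci was higher in each exposed library.

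The first comparison asks how the DBP library differed from the control. Ratios are differences of log2(FPKM + 1), and a locus is called different where the ratio is at least 2-fold (1 on the log2 scale) in size, among 13859 loci whose mean over the libraries reached 1 FPKM, a filter that all 4 loci passed. All 4 loci were higher in DBP. The log2 ratio was 1.03 for MT-CYB, 0.84 for MT-CO1, 0.55 for MT-CO2 and 0.29 for the CO3-ATP6-ATP8 locus. Only MT-CYB was past 2-fold, and barely, at 2.05 times the control. The background over all loci was 4.81% called in the higher direction and 3.31% in the lower. The call at MT-CYB rests on the scaling, since its ratio was 0.95 when each library was scaled to the same total.

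At 1.5-fold, 2 of the 4 loci were higher (MT-CYB and MT-CO1), beside 12.2% of all loci. Among the 127 loci whose mean reached 500 FPKM, which include these 4 and form a background chosen after seeing the data, 13.4% were at least 1.5-fold higher. The median ratio of the 4 loci was 0.69, against 0.01 for all loci. A ratio as high as that of MT-CYB was found at 4.55% of all loci, as that of MT-CO1 at 6.59%, as that of MT-CO2 at 13.5%, and as that of the CO3-ATP6-ATP8 locus at 26.7%.

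In the DiBP library the same loci were close to the control. The log2 ratio was -0.06 for MT-CO2, -0.12 for MT-CYB, -0.17 for MT-CO1 and -0.26 for the CO3-ATP6-ATP8 locus, and 0 of 4 passed 1.5-fold in either direction. The background past 2-fold was 7.25% of all loci in the higher and 7.04% in the lower direction. Past 1.5-fold, 2170 of 13859 loci were higher and 2510 (18.1%) lower. The median of the 4 loci was -0.14, against -0.06 for all loci. The direction at MT-CO2 turned with median-of-ratios scaling, where its ratio was 0.03.

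In the combined library the 4 loci lay below the control, with log2 ratios of -0.12 for MT-CO1, -0.39 for MT-CYB, -0.49 for MT-CO2 and -0.65 for the CO3-ATP6-ATP8 locus. Of the 4, 0 were past 2-fold, beside 3.48% of all loci higher and 3.23% lower. The CO3-ATP6-ATP8 locus was the single one past 1.5-fold, where 1391 of 13859 loci (10%) were lower. The median of the 4 loci was -0.44, against -0.08 for all loci. Ratios as low as that of the CO3-ATP6-ATP8 locus were found at 8.36% of all loci, and as low as that of MT-CO1 at 44.8%. The size of the deficit at MT-CO1 depends on the scaling, with a ratio of -0.01 at its smallest.

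**Figure D2:**
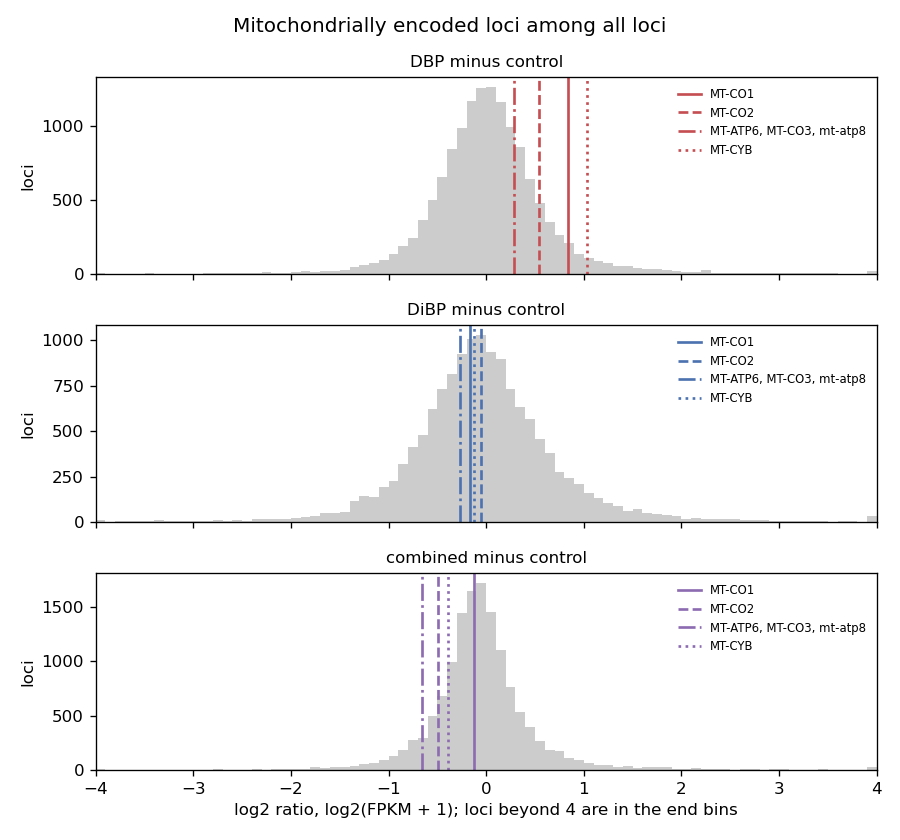
Histograms of the log2 ratio to control (x axis, log2(FPKM + 1)) over 13859 loci (y axis, number of loci), 1 panel per exposed library, with vertical lines at the 4 mitochondrially encoded loci. The lines lie right of the centre for DBP (0.29 to 1.03), near it for DiBP (-0.26 to -0.06) and left of it for the combined library (-0.65 to -0.12).

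The isomers were set side by side after the same 30 days, without knowledge of whether the doses matched. All 4 loci were lower in the DiBP than in the DBP library, by a log2 ratio of -1.15 for MT-CYB, -1.01 for MT-CO1, -0.60 for MT-CO2 and -0.55 for the CO3-ATP6-ATP8 locus. MT-CYB and MT-CO1 were at least 2-fold lower, beside 4.24% of all loci, and 3 of 4 at least 1.5-fold lower, beside 11.3%. The call at MT-CO1 was lost with median-of-ratios scaling, at -0.92.

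The library of the combined exposure had lower values than the DBP library at every one of these loci. The log2 ratio was -1.42 for MT-CYB, -1.04 for MT-CO2, -0.96 for MT-CO1 and -0.94 for the CO3-ATP6-ATP8 locus. MT-CYB and MT-CO2 were at least 2-fold lower, beside 4.54% of all loci, and all 4 at least 1.5-fold lower, beside 13.4%. The call at MT-CO2 was lost with each of the 4 scalings, its ratio reaching -0.85 at its smallest. Against DiBP alone, the combined library was lower at MT-CO2 (-0.43), the CO3-ATP6-ATP8 locus (-0.39) and MT-CYB (-0.27), and level at MT-CO1 (0.05). These sizes depend on the scaling, with MT-CO1 at up to 0.23 and MT-CYB at -0.08 at its smallest. Against DiBP, 0 of 4 passed 2-fold or 1.5-fold, beside 5.97% and 15.4% of all loci lower. The median of all loci moved from -0.01 to 0.12 with total scaling. These comparisons share libraries with each other and are not independent.

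The ratios were unequal among the 4 loci, which is seen without any scaling between libraries in ratios taken within a library. MT-CO1 was at 0.702 times MT-CO2 in the control, 0.860 times in DBP, 0.650 times in DiBP and 0.907 times in the combined library. MT-CYB was at 0.603, 0.689, 0.623 and 0.501 times MT-CO1 in the same order. The DBP library thus had the highest proportion of MT-CYB to MT-CO1, and the combined library the lowest.

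The CO3-ATP6-ATP8 locus was at 0.460 times MT-CO2 in the control and at 0.385, 0.398 and 0.411 times in the DBP, DiBP and combined libraries. Against MT-CYB it was at 1.09, 0.649, 0.984 and 0.903 times. It was the locus with the smallest excess in DBP and the largest deficit in both other exposed libraries, so relative to MT-CO2 and to MT-CYB it was lower in each exposed library than in the control.

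**Figure D3:**
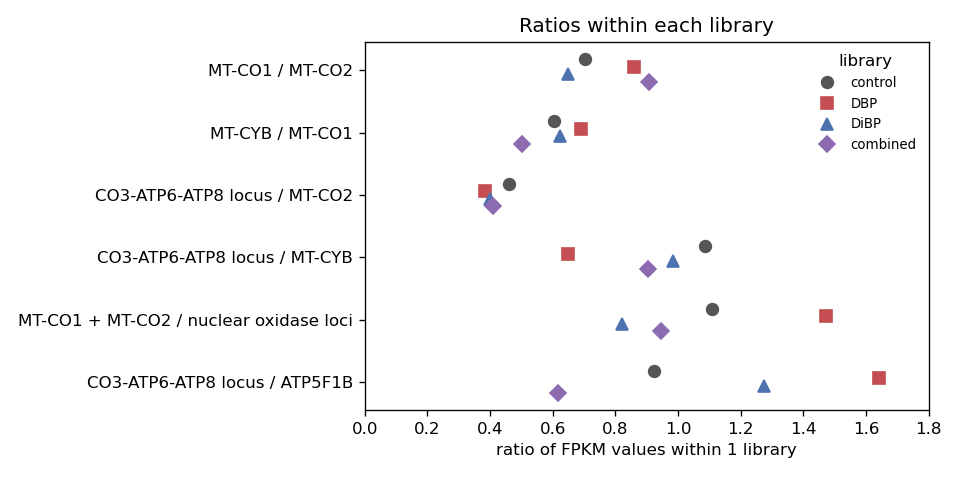
Ratios of FPKM values within 1 library (x axis) for pairs of mitochondrially encoded loci and for these loci over nuclear-encoded partners (y axis), 1 symbol per library. The DBP symbol stands furthest right for MT-CO1 + MT-CO2 over the nuclear oxidase loci (1.47) and for the CO3-ATP6-ATP8 locus over ATP5F1B (1.64).

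The complex I genes of the same genome, cut from the same kind of precursor, differed from the control by more. In DBP all 6 complex I loci were past 2-fold and higher, beside 4.81% of all loci. Their log2 ratios were 1.54 to 2.69, a range above that of the 4 loci described here (0.29 to 1.03). In DiBP the complex I loci ran from 0.39 to 1.78, whereas the 4 loci ran from -0.26 to -0.06. Of the complex I loci, 3 of 6 were at least 2-fold higher in DiBP, beside 7.25% of all loci. In the combined library the ranges overlapped, at -0.62 to 1.15 for complex I and -0.65 to -0.12 for the 4 loci. With 1 library a group, this difference between the sets of loci was not tested.

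Levels of the complex I loci were far lower. MT-ND1, a core membrane subunit of complex I, was at 89.8 FPKM in the control, 584 in DBP, 310 in DiBP and 180 in the combined library. MT-CO1 was thus 15.5 times MT-ND1 in the control and 4.26, 3.99 and 7.09 times in the exposed libraries. The summed level of the 4 loci was 8.96 times that of the complex I loci in the control, 3.63 times in DBP, 4.05 times in DiBP and 5.07 times in the combined library. Some neighbours on the genome had unlike ratios and others like ones. MT-ND3, just beyond the CO3-ATP6-ATP8 locus, had a log2 ratio of 1.76 in DBP against 0.29 for that locus, while MT-ND6 and MT-CYB stood at 2.13 and 1.03. MT-ND5 and MT-ND6 were alike, at 2.27 and 2.13 in DBP and 1.63 and 1.33 in DiBP. MT-ND6 lies on the opposite strand, and whether reads were counted by strand is not given in the sources used here, so reads from the opposite strand cannot be told apart.

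**Figure D4:**
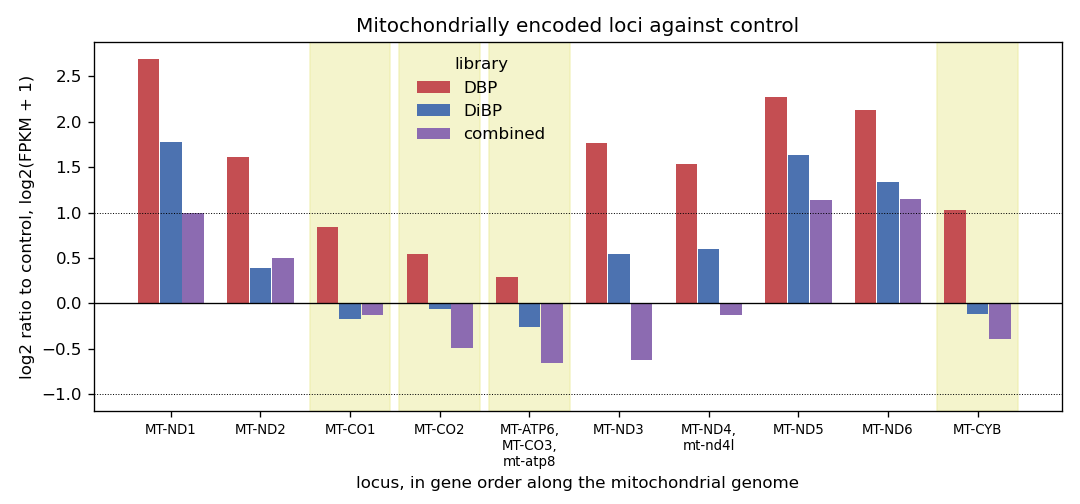
Log2 ratio to control (y axis, log2(FPKM + 1)) of the 10 mitochondrially encoded loci in gene order along the mitochondrial genome (x axis), 1 bar per exposed library; shading marks the oxidase, cytochrome b and ATP synthase loci, and dotted lines mark 2-fold. The shaded DBP bars reach 0.29 to 1.03, the unshaded ones 1.54 to 2.69; the small DiBP bar at MT-CO2 is positive with median-of-ratios scaling.

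Most nuclear-encoded partners of these subunits lay within 2-fold of the control in each exposed library. The filter was passed by 43 nuclear-encoded loci of the oxidase, complex III with cytochrome c, and ATP synthase. Past 2-fold were 2 of them in DBP, 2 in DiBP and 1 in the combined library, all higher. At 1.5-fold, 4 were higher and 1 lower in DBP, 10 and 4 in DiBP, and 2 and 1 in the combined library. Over all 13859 loci, 1697 were higher and 1445 lower in DBP, 2170 and 2510 in DiBP, and 1078 and 1391 in the combined library. The median log2 ratios of the 43 loci were 0.20, 0.21 and -0.10, against 0.01, -0.06 and -0.08 for all loci. The lists had been drawn up with results of these data known, and a share of called genes near the 4.81%, 7.25% and 3.48% of all loci says nothing particular about them.

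For the oxidase, 18 of 21 listed symbols were found, giving 20 loci, of which 14 passed the filter. Their median log2 ratio was 0.34 in DBP, 0.24 in DiBP and -0.06 in the combined library, the last turning to 0.03 with median-of-ratios scaling. COX5B, a subunit on the matrix side and the most abundant of them, was at 485 FPKM in the control, 614 in DBP, 577 in DiBP and 509 in the combined library. Just 2 loci of the list passed 2-fold, both at low levels. These were cox6b1, at 0.303 FPKM in the control and 4.15, 2.23 and 1.42 in the exposed libraries, and cox8b, at 1.64 and 3.21, 4.11 and 7.45. The control value of cox6b1 was below 1 FPKM, so that locus passed the filter only through the exposed libraries. The summed MT-CO1 and MT-CO2 level was 1.11 times the summed nuclear oxidase loci in the control, 1.47 times in DBP, 0.819 times in DiBP and 0.945 times in the combined library. That balance was therefore above the control in DBP and below it in DiBP and the combined library.

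Cytochrome b works beside CYC1, the cytochrome c1 that hands electrons on, and UQCRFS1, the iron-sulfur protein. CYC1 was at 109 FPKM in the control, 87.0 in DBP, 82.2 in DiBP and 96.0 in the combined library. It was thus below the control in each exposed library and lowest in DiBP. MT-CYB was 7.73 times CYC1 in the control, 19.7 times in DBP, 9.38 times in DiBP and 6.68 times in the combined library. Against UQCRFS1 the multiples were 10.1, 24.1, 13.5 and 9.96. The higher multiples in DiBP than in the control depend on the choice of CYC1 and UQCRFS1. The list of complex III and cytochrome c summed to 990 FPKM in the control, 1062 in DBP, 1087 in DiBP and 900 in the combined library. Against that sum MT-CYB was lower in DiBP than in the control, at 771 against 839 FPKM. All 10 loci of complex III and cytochrome c passed the filter, with medians of -0.08, -0.18 and -0.18. UQCRH, the hinge protein that holds cytochrome c1, was the only one past 2-fold, at 76.7 FPKM in the control, 186 in DBP, 196 in DiBP and 84.6 in the combined library. The locus of UQCRB is merged with other named genes, and its value cannot be credited to it.

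Within ATP synthase, 0 of 19 nuclear-encoded loci passed 2-fold in any comparison with the control. Of all loci, 4.81%, 7.25% and 3.48% were higher and 3.31%, 7.04% and 3.23% lower, so 0 of 19 says little. The list medians were 0.18, 0.13 and -0.13. The main subunits of the catalytic head lay below the control in both single exposures. ATP5F1A, the alpha subunit, was at 974 FPKM in the control, 695 in DBP, 514 in DiBP and 893 in the combined library. ATP5F1B, the catalytic beta subunit, was at 987, 678, 595 and 939 FPKM. The inhibitor atp5if1a, which blocks the enzyme when it would run backwards, was higher in both single exposures, at 848 FPKM in the control, 1081 in DBP, 1385 in DiBP and 810 in the combined library. The CO3-ATP6-ATP8 locus was at 0.924 times ATP5F1B in the control, 1.64 times in DBP, 1.27 times in DiBP and 0.616 times in the combined library. The higher multiple in DiBP depends on the partner chosen. The 19 nuclear-encoded loci summed to 7674 FPKM in the control, 7480 in DBP, 7743 in DiBP and 6829 in the combined library. They include the inhibitors atp5if1a and atp5if1b. Without atp5if1a the DiBP sum would lie below that of the control. Against the sum of the 19 loci, the CO3-ATP6-ATP8 locus was lower in DiBP than in the control, at 759 against 912 FPKM. ATP5F1A, ATP5F1B, CYC1 and UQCRFS1 were picked for their roles after values were seen.

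**Figure D5:**
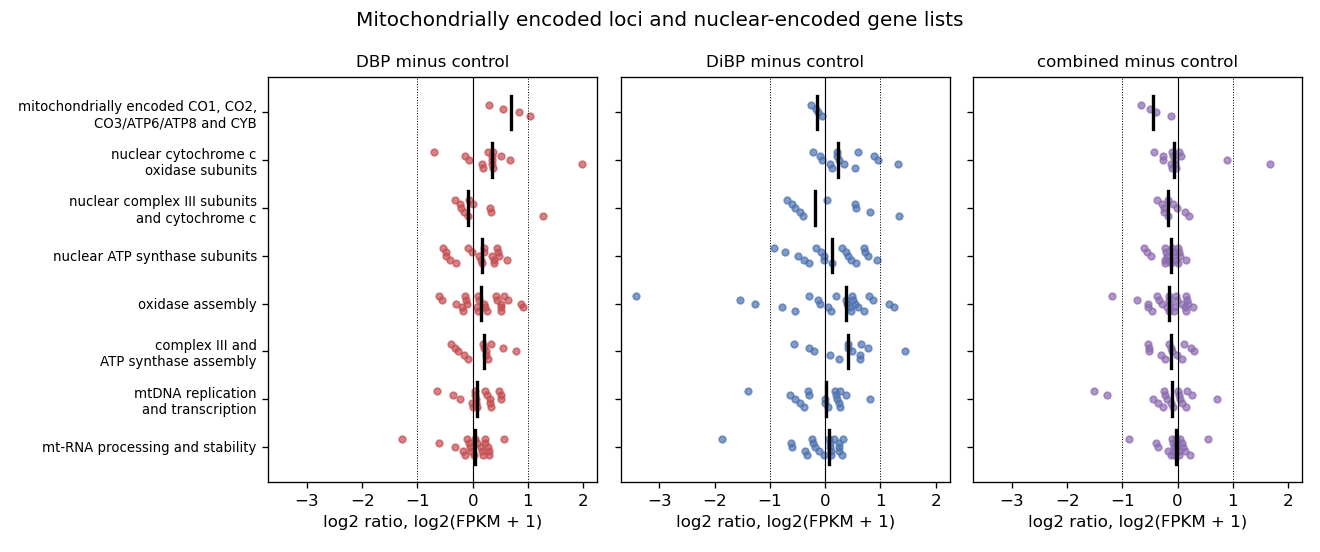
Log2 ratio to control (x axis, log2(FPKM + 1)) of the 4 mitochondrially encoded loci and of nuclear-encoded gene lists (y axis) in each exposed library, 1 point per locus whose mean reached 1 FPKM; the black line is the median and dotted lines mark 2-fold. The medians of the 4 loci are 0.69, -0.14 and -0.44, and the point furthest left in the DiBP panel is taco1, at -3.43.

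Factors that build the oxidase were also compared, 24 loci in all. In DBP 0 passed 2-fold, beside 4.81% of all loci higher and 3.31% lower. In DiBP 2 were higher and 3 lower, beside 7.25% and 7.04%, and in the combined library 0 higher and 1 lower, beside 3.48% and 3.23%. The medians were 0.16, 0.38 and -0.15. The translational activator taco1, which in mammals is needed to make the CO1 protein, was at 24.3 FPKM in the control, 25.7 in DBP, 1.35 in DiBP and 16.5 in the combined library. The MT-CO1 transcript itself was at 1239 FPKM in that DiBP library against 1392 in the control. COX10, which makes the heme precursor for the oxidase, was at 6.71 FPKM in the control and 4.02, 2.20 and 4.59 in the exposed libraries. COA1, a small assembly factor, was at 8.60 FPKM in the control and 9.23, 2.28 and 4.79 in the exposed libraries, so both were lowest in DiBP. COA7, an assembly factor of the respiratory chain, was higher in both single exposures, at 45.0 FPKM in DBP and 56.5 in DiBP against 23.4 in the control and 25.9 in the combined library.

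The copper chaperone cox17 was the most abundant assembly factor, at 295 FPKM in the control, 440 in DBP, 415 in DiBP and 264 in the combined library. Assembly factors of complex III and ATP synthase had medians of 0.21, 0.41 and -0.13 over 13 loci, with uqcc4 past 2-fold in DiBP (57.4 FPKM against 20.5). The most abundant of these was TMEM70, an ATP synthase assembly factor, at 97.6 FPKM in the control and 77.9, 79.9 and 89.3 in the exposed libraries. Of this group uqcc4 was the single locus past 2-fold in any exposed library, beside 7.25% of all loci higher in DiBP.

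Genes that copy and read the mitochondrial genome differed little as a list, with medians of 0.07, 0.02 and -0.11 over 18 loci. The number past 2-fold was 0 in DBP, 1 in DiBP and 2 in the combined library, all of them lower, beside 3.31%, 7.04% and 3.23% of all loci. The DiBP median turned to -0.096 with total scaling. The list counts a merged locus of MTERF4 and that of mterf3, which is the merged locus of UQCRB above. Their values cannot be credited to these genes. POLRMT, the RNA polymerase of mitochondria, was at 9.99 FPKM in the control, 7.57 in DBP, 6.51 in DiBP and 10.2 in the combined library. TFAM, which packs mitochondrial DNA and starts its transcription, was at 19.3, 23.2, 23.3 and 13.8 FPKM. On log2(FPKM + 1), neither passed 1.5-fold against the control in any exposed library. POLRMT in DiBP came close, at -0.55, and would pass without the added 1. The initiation factor tfb2m was at 9.02 FPKM in the control, 13.3 in DBP, 6.30 in DiBP and 10.1 in the combined library, and was thus highest in DBP. The replicative polymerase POLG was at 5.90 FPKM in the control and 3.40, 1.63 and 1.84 in the exposed libraries, and TFB1M, which methylates the mitochondrial ribosomal RNA, was at 11.5 and 12.1, 7.02 and 3.40. SSBP1, which coats single-stranded mitochondrial DNA, was the most abundant at 63.2 FPKM in the control.

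Genes that process and protect mitochondrial RNA had medians of 0.05, 0.07 and -0.04 over 21 loci. LRPPRC and its partner SLIRP bind mitochondrial mRNAs and keep them stable. LRPPRC was at 15.3 FPKM in the control, 12.1 in DBP, 9.62 in DiBP and 14.0 in the combined library, and SLIRP at 76.6, 78.3, 67.7 and 84.5. ELAC2, which trims the ends of tRNAs in the precursor, was at 42.1, 27.2, 32.3 and 39.0 FPKM. The one locus past 2-fold was fastk, a regulator of mitochondrial mRNA in mammals. It was at 12.8 FPKM in the control, 4.69 in DBP, 2.76 in DiBP and 6.45 in the combined library. It was past 2-fold in DBP and DiBP, beside 3.31% and 7.04% of all loci lower. The most abundant was MRPL12, a mitochondrial ribosomal protein, at 152, 188, 181 and 148 FPKM. POLRMT, TFAM, tfb2m, LRPPRC, SLIRP and ELAC2 were picked for their roles after values were seen.

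A list of mitochondrial mass and quality genes had medians of -0.10 in DBP, -0.61 in DiBP and -0.24 in the combined library over 25 loci. In DiBP 3 loci were past 2-fold, all lower (mfn1b, PINK1 and ESRRA), beside 7.04% of all loci, and 13 of 25 were past 1.5-fold and lower, beside 18.1% of all loci. CLPP, a protease of the mitochondrial matrix, was the one locus past 2-fold in DBP, at 10.5 FPKM against 24.1. The share of all loci lower in DBP was 3.31%. VDAC2, an outer-membrane channel, was at 209 FPKM in the control, 170 in DBP, 137 in DiBP and 196 in the combined library. Not all of the list was lower, with 9 of 25 loci above the control in DBP, 4 in DiBP and 7 in the combined library. CS, citrate synthase, was at 17.6 FPKM in the control, 28.8 in DBP, 33.3 in DiBP and 23.5 in the combined library. It was the 1 locus at least 1.5-fold higher in DBP and in DiBP. Complex II, whose subunits are all nuclear-encoded, had medians of 0.02, -0.24 and -0.20 over 4 loci, with 0 past 2-fold. With 4 loci, 0 says little beside shares of all loci of 3.23% to 7.25% in either direction. SDHC, the most abundant of them, was at 96.4, 99.3, 97.2 and 69.8 FPKM.

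Markers of the cell types in the ovary were set beside these values. Of 10 listed oocyte symbols, zp3b was found but gave no locus above 0 in any library. The other oocyte markers were abundant throughout, with 9 of 9 loci past the filter. Their sums were 5551 FPKM in the control, 6979 in DBP, 6714 in DiBP and 4435 in the combined library. In DBP and DiBP much of the difference lay in h1m, which encodes an oocyte linker histone, at 531, 1453, 1889 and 427 FPKM. Most of each sum was a merged locus of zp2 genes, at 4092, 4356, 3659 and 3289 FPKM. In the combined library most of the lower sum lay at that zp2 locus. Past 2-fold in DBP was also figla, at 41.2 FPKM against 17.6 in the control. Without h1m, left out after seeing the data, the sums were 5020, 5526, 4825 and 4008 FPKM, so that the DiBP sum was below the control. The list medians against control were 0.09, -0.10 and -0.32. Smooth muscle and vessel markers, with 3 of 11 loci past the filter, summed to 9.27, 43.1, 16.4 and 10.4 FPKM. The sum was highest in DBP, through a TAGLN locus at 33.5 FPKM against 5.47. The 3 loci past the filter, of acta2, TAGLN and MYL9, are smooth muscle markers. Of these, acta2 was at 0.833, 2.80, 1.15 and 0.893 FPKM and MYL9 at 0.313, 3.01, 2.46 and 0.519. Both were below 1 FPKM in the control and combined libraries and passed the filter only through the single exposures. The vessel markers kdrl, cdh5 and tek were below the filter. In DBP kdrl (0.498 FPKM against 1.29) and cdh5 (0.134 against 0.168) were lower and tek (1.06 against 0.538) was higher than in the control. Granulosa and theca markers, with 4 of 12 loci past the filter, summed to 71.0, 102, 58.2 and 84.3, with FSHR, inha, hsd3b1 and a FOXL2 locus listed at 0 in the control. Most of that sum was a CYP11A1 locus, at 58.4, 80.3, 34.1 and 67.3 FPKM, and the list medians were 0.41, 0.36 and 0.17, with 3 of the 4 loci higher in DiBP. Without CYP11A1 the sums were 12.6, 21.8, 24.0 and 16.9 FPKM. CYP19A1, at 0.677, 3.65, 4.18 and 0.837 FPKM, likewise passed the filter only through the single exposures. Leukocyte markers, with 3 of 8 loci past the filter, summed to 3.93, 10.8, 8.70 and 5.97. Of these, cd74a, at 1.04, 4.39, 2.74 and 0.485 FPKM, passed the filter through the single exposures. The lyz locus, at 0.922, 0.949, 1.09 and 2.64 FPKM, was highest in the combined library, where cd74a was lowest. The remaining locus past the filter, of CORO1A, is merged with PAQR4, and its value cannot be credited to either. Striated muscle markers (4 of 9) summed to 10.3, 7.33, 8.73 and 6.65. Erythrocyte markers (0 of 7) summed to 0.969, 2.59, 2.43 and 0.655, with hbaa1 listed at 0 in the control. Whether these cells had a part in the higher mitochondrial values of the DBP library was not tested.

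Genes with the most similar pattern were sought among 4457 loci with a symbol of their own whose mean reached 10 FPKM. Likeness was the distance between the 3 log2 ratios to control, over 4 libraries, so it rests on few values and is a description. For MT-CO1 the nearest were tnfsf10l4 (distance 0.13), HAPLN4, lpcat4, CEP20 and tia1. For MT-CO2 the nearest was mrpl54 (0.08), at 73.9 FPKM in the control, 109 in DBP, 75.2 in DiBP and 51.9 in the combined library, followed by SDHAF4, higd1a, FBXO45 and TRA2A. The CO3-ATP6-ATP8 locus lay nearest to AIFM2 (0.12), RPP30, soul4, prrg2 and PYM1, and MT-CYB to mibp (0.23), elavl1a, MGST3, tnfsf10l4 and higd1a.

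Among themselves, MT-CO1 and MT-CYB lay closest, at a distance of 0.33, and MT-CO2 lay 0.37 from the CO3-ATP6-ATP8 locus. MT-CYB lay 0.80 from the latter and MT-CO1 0.77. The complex I loci were at 0.92 or more from each of the 4 loci, the nearest pair being MT-CYB with the locus of MT-ND4 and mt-nd4l. For MT-CO1, just 8 of the 4457 candidates lay nearer than MT-CYB did, and 2525 lay nearer than the closest complex I locus.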

How the data were processed

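The authors deposited 1 table per library with FPKM values, a unit that no header or label names and that was read from the values. HISAT2, the build GRCz10 and HTSeq 0.6.1 are named in the submitters' processing notes, without order or settings, and per the labels' protocols libraries were made with the NEBNext Ultra kit and read in pairs. FPKM carry no counts, so depth is unknown and no counting interval can be given. The summed FPKM were 534379 (control), 572398 (DBP), 598063 (DiBP) and 512635 (combined).

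Of 49610 rows, 35066 carry an Ensembl identifier, and 26996 of these had a symbol. Rows with the same 4 values were joined, which left 35253 loci above 0 and 13859 with a mean of at least 1 FPKM. Ratios are log2(FPKM + 1), which understates differences of low genes, without further scaling. All 6 pairs of libraries were compared. The alternatives were pseudocounts of 0.1 and 5, filters, 4 scalings and a fold of 1.5. Listed symbols were matched in any case, and without a final paralog letter where absent, which was decided after seeing the data. The mitochondrial rRNA list had no match. Some listed genes, such as ATP5PB, uqcc5 and fastkd2, are counted through a locus merged with other named genes. Gene order came from start positions in the RefSeq annotation of GRCz12tu, and coordinates were used for nothing else. The genes named are all members and a selection from each list. The selection was drawn from up to 4 loci past 2-fold against control, the most abundant locus, and those chosen for their roles. Not all such loci were described, and CS and some markers were named outside this rule. Genes of similar pattern were the 5 nearest to each locus. The members and lists were chosen with earlier results of these data known. The code was tested on simulated data. Python 3.11.15, numpy 2.4.6, pandas 2.3.3 and matplotlib 3.10.9 were used.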

Additional observations from a re-analysis of the deposited data

How the results depend on the processing

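Of the ratios of the 4 loci, MT-CYB in DBP against control was 1.03 as reported and 0.95 scaled to the total, 0.96 to the total less the 50 most abundant loci and 0.97 without mitochondrially encoded loci, so that 0 loci were then called in place of 1. MT-CO1 in DiBP against DBP was -0.92 with median-of-ratios scaling, leaving 1 call in place of 2. MT-CO2 in the combined library against DBP was -0.94 with that scaling, -0.92 scaled to the total, -0.85 to the total less the 50 most abundant loci and -0.94 without mitochondrially encoded loci, again leaving 1 call. At 1.5-fold the calls were 2 in DBP and 1 in the combined library against control, 3 in DiBP and 4 in the combined library against DBP. The other 136 of 144 recomputed ratios kept their side of 2-fold, and 1 of the 24 ratios changed sign under any scaling or pseudocount (MT-CO2, DiBP against control). The cause of these shifts was not tested.

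Over all loci, 1126, 1981 and 930 were past 2-fold in DBP, DiBP and the combined library against control, and 1138, 1012 and 1438 in DiBP against DBP and in the combined library against DBP and DiBP. With a pseudocount of 0.1 these were 1883, 2930, 1693, 1807, 1733 and 2323 in the same order, and with 5 they were 344, 657, 277, 356, 339 and 494. A mean of at least 5 FPKM left 503, 959, 369, 459, 432 and 711, and a fold of 1.5 gave 3142, 4680, 2469, 2825, 2907 and 3894. List medians moved by at least 0.1 in 88 of 516 recomputations, 23 of them to the other sign. No paired analysis was possible because each group has 1 library.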
